A study of Mus musculus with 2 samples.

Results

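Cells with marker genes of the eosinophil, basophil and mast lineages were a small population of the single-cell libraries, 52 of the 4502 retained cells. They were chosen by measured values, and 4 of the 6 on the eosinophil side carried immunoglobulin and other B-lineage genes. A retained cell (at least 500 genes detected and at most 10% of its unique molecular identifiers, UMIs, from mitochondrial genes) was a member if *Prg2*, *Prg3*, *Epx*, *Cpa3*, *Mcpt8* and *Ms4a2* together gave at least 10 UMIs and if *Mpo*, *Elane*, *Prtn3* and *Ctsg*, the granule genes of granulocyte-monocyte progenitors, gave less than 1% of its UMIs. A member was put on the eosinophil side where *Prg2*, *Prg3* and *Epx* had the larger sum, and on the basophil/mast side where *Cpa3*, *Mcpt8* and *Ms4a2* did. No member was tied. The levels of these genes are therefore given as a description of the members and not as a finding.

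The study compared 2 libraries. Both came from littermate mice labelled male, 3 in number, of the genotype Clec3b.creERT2; Ai14.R26.tdTomato, in which a tamoxifen-dependent Cre recombinase expressed from the *Clec3b* locus switches on the red fluorescent protein tdTomato, and tamoxifen had been given 2 weeks before surgery. The intact library (treatment None) was made from pooled femoral diaphyses with the muscle around them, and the callus library (treatment Fracture) from pooled fracture calluses of the same mice 3 weeks after surgery; both were digested with collagenase and sorted for tdTomato fluorescence. By the study's methods the mice were 6 weeks old at surgery. Cre activity follows the *Clec3b* promoter, and *Clec3b* itself gave 0 UMIs in all 52 members. The 0 of 7 intact and 0 of 45 callus cells allow shares with a UMI of up to 42.9 and 6.67%. These limits hold only for such cells of the same 2 pools. They were set at 3 cells of the total and not by an exact interval. They limit cells with a UMI and not expression.

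The deposited matrices held 1872 barcodes with 12112002 UMIs for the intact library and 3987 barcodes with 36714322 UMIs for the callus library. Of these, 1207 and 3295 cells were retained, with medians of 4939 and 6843 UMIs. One condition was 1 pooled library, so that differences between intact and callus have no replicate check and no p-value is given. Levels are UMIs summed over the cells of a group and scaled to 1000000 UMIs of that group (CPM). Intervals are 95% and exact, Poisson for a level and Clopper-Pearson for a share, and cover counting error only. The libraries shared 1 cell barcode, which was not a member.

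Eosinophils, basophils and mast cells arise from haematopoietic progenitors in the bone marrow. Eosinophils store cationic proteins such as major basic protein (*Prg2*) and eosinophil peroxidase (*Epx*). Basophils and mast cells carry the high-affinity IgE receptor, whose cross-linking releases histamine, lipid mediators and cytokines. Basophils circulate and in the mouse make the serine proteases *Mcpt8* and *Prss34*, whereas mast cells mature in tissues under the control of the stem cell factor receptor *Kit* and store chymases and tryptases. The transcription factor *Gata2* is needed in both basophils and mast cells.

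Members made up 7 of the 1207 intact cells (0.580%, interval 0.233 to 1.19%) and 45 of the 3295 callus cells (1.37%, interval 0.998 to 1.82%). The 2 intervals overlapped. The basophil/mast side held 6 intact cells (0.497%, interval 0.183 to 1.08%) with 43070 UMIs and 40 callus cells (1.21%, interval 0.869 to 1.65%) with 607512 UMIs. The eosinophil side held 1 intact cell (0.0829%, interval 0.0021 to 0.461%) and 5 callus cells (0.152%, interval 0.0493 to 0.354%). Cells entered through a tdTomato sort, so these are shares of sorted cells and not of the tissue. The study reported no meaningful tdTomato expression in the haematopoietic and endothelial populations among its sorted cells. It took these populations for artifacts of flow cytometry and left them out. Membership therefore does not show that a cell was of the *Clec3b* lineage.

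Cells lay close to the thresholds on both sides, above all for the progenitor genes in callus. Members with 10 to 12 UMIs of the rule genes numbered 2 in the intact and 3 in the callus library, and 2 and 8 non-members had 5 to 9 UMIs, with highest values of 8 and 9. The share of *Mpo*, *Elane*, *Prtn3* and *Ctsg* reached 0.492% in intact and 0.861% in callus members, and 11 callus members lay between 0.5 and 1%. This limit kept out 13 callus cells and no intact cell, with shares from 1.04 to 3.26%. Of these 13 cells, 9 would have joined the basophil/mast side with 12 to 47 UMIs of *Cpa3*, *Mcpt8* and *Ms4a2*, and 4 the eosinophil side with 9, 97, 156 and 506 UMIs of *Prg2*, *Prg3* and *Epx*. The last of these had 24320 UMIs, of which 425 were from *Prg2*, 56 from *Prg3*, 25 from *Epx* and 29 from *Cebpe*, a transcription factor of granule gene expression.

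**Figure D1:**
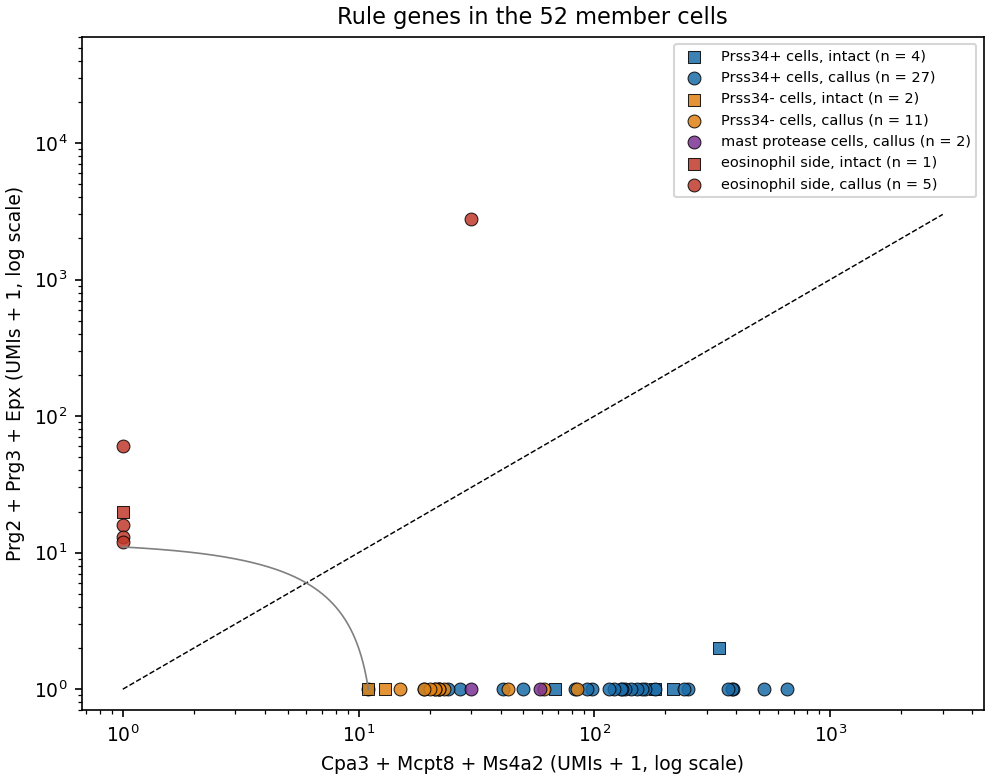
UMIs of *Cpa3*, *Mcpt8* and *Ms4a2* (x axis) against UMIs of *Prg2*, *Prg3* and *Epx* (y axis) in each of the 52 members, both with 1 added and on log scales. Squares are intact and circles callus cells, the dashed line marks equal sums and the grey curve marks the minimum of 10 UMIs. The sides are far apart, and 1 callus cell stands alone on the eosinophil side with 2769 UMIs.

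The sex genes of the libraries did not go with the label of the mice, in the members as in the other cells. *Xist*, the RNA of the inactive X chromosome, was present in 7 of 7 intact and 45 of 45 callus members, and the Y-linked genes *Ddx3y*, *Eif2s3y*, *Kdm5d* and *Uty* gave 0 UMIs in them. Over all retained cells, Y-linked genes gave 1 UMI in the 1207 intact and 0 in the 3295 callus cells. The cause was not tested.

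On the basophil/mast side the leading genes over all other retained cells were those of basophils. A gene is called higher or lower below where its level differed at least 2-fold between 2 groups, and it entered a comparison with at least 20 UMIs over both groups. In the intact library 17.1% of all genes and in the callus library 9.61% of all genes were called higher in the basophil/mast side than in the other cells. The side was chosen on genes that go with the basophil and mast lists, so that the following counts describe the cells and support nothing further. Of the basophil genes, 20 of 20 were higher in intact and 22 of 24 in callus, and of the mast cell genes 3 of 6 were higher in intact (*Slc18a2*, *Srgn* and *Kit*) and 10 of 11 in callus. In intact *Cma1*, *Mcpt4* and *Tpsb2*, the protease genes of mast cells, had 0 UMIs. In callus all 169 UMIs of *Cma1*, all 44 of *Mcpt4* and 67 of the 68 of *Tpsb2* came from 2 of the 40 cells.

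*Prss34*, which was not part of the rule, encodes the basophil protease mMCP-11 and had the largest difference. Its level was 40724 CPM in the 6 intact cells and 11027 CPM in the 40 callus cells, against 0.269 and 0.268 CPM in the other cells of the same library. On the log2 scale with 10 CPM added these were differences of 11.95 and 10.07. A *Prss34* UMI was found in 2 of 1200 other intact cells (0.167%) and 9 of 3250 other callus cells (0.277%), with at most 1 UMI each. This share, which free RNA in the droplets could give, is far below that of the members.

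The rule genes of this side had the same order in both libraries on the log2 scale. *Mcpt8* (mouse mast cell protease 8, a basophil protease in spite of its name) stood at 15486 CPM in intact and 5363 CPM in callus, differences from the other cells of 10.42 and 8.36. *Cpa3*, the carboxypeptidase of mast cell and basophil granules, stood at 2508 and 2336 CPM, differences of 7.57 and 6.88. *Ms4a2*, the β chain of the IgE receptor, stood at 1068 and 703 CPM, differences of 6.61 and 5.91. The IgE receptor α chain *Fcer1a* was at 1300 and 263 CPM and its differences were 6.96 and 4.72. *Gata2* was at 906 and 872 CPM with differences of 5.38 and 5.70, and its UMIs were in 6 of 6 intact and 37 of 40 callus cells, whereas *Fcer1a* was in 4 of 6 and 25 of 40.

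The other leading genes were not part of the rule. *Cd200r3*, an activating receptor of basophils and mast cells, was at 673 CPM in intact and 263 CPM in callus against 0.403 and 0.923 CPM in the other cells. *Slc18a2*, the vesicular transporter that loads histamine into granules, was at 232 and 239 CPM against 3.09 and 1.79 CPM. *Cyp11a1*, the enzyme that starts steroid synthesis, was at 279 and 216 CPM against 0.940 and 0.923 CPM. These genes were at least 2-fold higher in both libraries, as were *Ifitm1* (1486 and 1053 CPM), *Hgf*, hepatocyte growth factor (650 and 380 CPM), *Csrp3* (441 and 324 CPM), *Itga2b*, the integrin αIIb (209 and 194 CPM), *Rnase12* (255 and 201 CPM) and *Ier3* (3088 and 1323 CPM). The differences of these genes from the other cells on the log2 scale ran from 3.99 to 6.04 in intact and from 3.85 to 4.65 in callus.

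*Prss34*, *Cpa3* and *Ms4a2* had in their promoters the DNA motif of GATA factors, the family of *Gata2*. The sequences are shown because these genes were among the leading genes of the side and share this feature, which the rule did not use. They are the 250 bases before the RefSeq start, written 5′ to 3′ on the strand of the gene in build GRCm38.p6, and capitals mark the motif. *Prss34* lies on the plus strand at chr17:25298394-25300165 and its window at chr17:25298144-25298393. *Cpa3* lies on the minus strand at chr3:20215620-20242181 with its window at chr3:20242182-20242431, and *Ms4a2* on the minus strand at chr19:11615523-11623719 with its window at chr19:11623720-11623969.
Prss34: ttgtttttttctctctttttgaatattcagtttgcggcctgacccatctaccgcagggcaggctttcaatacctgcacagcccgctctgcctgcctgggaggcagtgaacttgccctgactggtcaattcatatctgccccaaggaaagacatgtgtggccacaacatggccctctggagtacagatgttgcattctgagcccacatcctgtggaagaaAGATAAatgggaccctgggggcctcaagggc
Cpa3: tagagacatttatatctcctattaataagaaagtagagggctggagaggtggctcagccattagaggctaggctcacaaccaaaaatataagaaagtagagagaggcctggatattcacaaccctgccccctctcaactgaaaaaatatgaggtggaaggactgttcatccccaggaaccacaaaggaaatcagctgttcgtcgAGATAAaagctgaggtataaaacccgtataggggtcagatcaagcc
Ms4a2: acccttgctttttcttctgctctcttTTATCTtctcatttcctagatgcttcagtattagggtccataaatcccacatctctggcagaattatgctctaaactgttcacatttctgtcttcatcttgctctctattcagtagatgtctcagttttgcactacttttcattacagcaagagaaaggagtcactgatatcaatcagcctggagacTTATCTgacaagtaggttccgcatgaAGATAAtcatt
The search covered both strands and 4 forms of the motif. The form in all windows shown was AGATAA, which reads TTATCT when it lies on the opposite strand. A further form was AGATAG, and both were also searched with a first T, as TGATAA for the former and as TGATAG for the latter. It stood 31 bases before the start of *Prss34* and 46 bases before that of *Cpa3*, and *Ms4a2* had 3 matches. At least 1 match was found in 29.8% of the 32851 RefSeq promoters of 300 bases, which reach 50 bases past the start, and at least 3 in 1.76%. Of 16 genes searched, 13 had a RefSeq promoter and 9 of these held the motif, whereas *Mcpt8*, *Epx*, *Gata2* and *Kit* held none in this window. A match is a description of letters and shows no binding.

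The 46 cells of the basophil/mast side fell into 3 groups that were set after their values had been seen. Prss34+ cells had at least 1 *Prss34* UMI and numbered 4 in intact and 27 in callus, of which 23 callus cells had at least 5. Mast protease cells had at least 10 UMIs of *Cma1*, *Mcpt4* and *Tpsb2*, genes of mast cell chymases and a tryptase, and numbered 0 and 2. The remaining Prss34- cells numbered 2 and 11. No test was made between these groups, and the values below describe them.

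The rule UMIs themselves differed in make-up between the groups. *Mcpt8* gave 83.4% of 800 rule UMIs in intact and 68.1% of 4677 in callus Prss34+ cells. In the callus Prss34- cells *Cpa3* gave 69.1% of 340 rule UMIs and *Mcpt8* 21.2%, with 55 of the 72 *Mcpt8* UMIs in 1 cell. In the mast protease cells *Cpa3* gave 97.7% of 87. *Ms4a2* gave 5% (interval 3.60 to 6.75%) in intact and 8.40% (interval 7.62 to 9.23%) in callus Prss34+ cells. These shares depend on the other genes of the rule, and the intervals leave out the spread between cells. It gave 9.71% in callus Prss34- cells, 27.3% of 22 rule UMIs in intact Prss34- cells and 1.15% in the mast protease cells.

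The 4 intact Prss34+ cells had 8152, 7934, 6201 and 5042 UMIs. Their *Prss34* counts were 663, 647, 327 and 117 UMIs. Their *Mcpt8* counts were 182, 284, 147 and 54 UMIs, and their *Cpa3* counts 22, 42, 23 and 5 UMIs. All 4 cells thus carried both basophil proteases at high counts, with the lowest in the shallowest cell. *Ms4a2* had 11, 11, 10 and 8 UMIs, and *Fcer1a* 30, 23, 2 and 1. *Kit* and *Cd34*, a marker of progenitors, had 0 UMIs in all 4 cells.

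The 27 callus Prss34+ cells were more varied. Their depth ran from 2805 over a median of 11775 to 34589 UMIs. *Prss34* ran from 1 over a median of 91 to 982 UMIs, *Mcpt8* from 1 over 77 to 501, *Cpa3* from 2 over 33 to 126 and *Ms4a2* from 1 over 13 to 35. *Prss34* took 0.00738 to 6.0% of the UMIs of a callus cell with a median of 1.5%, against 2.32 to 8.15% with a median of 6.70% in the 4 intact cells. The groups overlapped: 16 of the 27 callus cells lay below the lowest intact cell, 11 lay within the intact range and 0 above it. For the *Mcpt8* share, 15 lay below and 12 within. The callus cells were mostly deeper, with 16 above the intact range of UMIs. Over the 27 callus cells the number of UMIs and the *Mcpt8* share had a correlation of 0.04 (Pearson) and 0.10 (Spearman).

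Within these 27 callus cells the shares of the 2 proteases went together. The correlation of the *Prss34* and *Mcpt8* shares was 0.85 (Pearson) and 0.87 (Spearman), and that of the chemokine genes *Ccl3* and *Ccl4* 0.93 and 0.86. *Mcpt8* and *Cpa3* had 0.53 and 0.53, *Mcpt8* and the proliferation genes 0.43 and 0.39. *Prss34* had 0.26 and 0.21 with *Fcer1a* and 0.10 and 0.03 with *Gata2*. Of the pairs of genes computed, the protease pair and the chemokine pair had the highest values. *Mcpt8* was a gene of the rule and *Prss34* chose the group. These are values across cells of 1 library, which share the library and its depth and are not replicates.

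**Figure D2:**
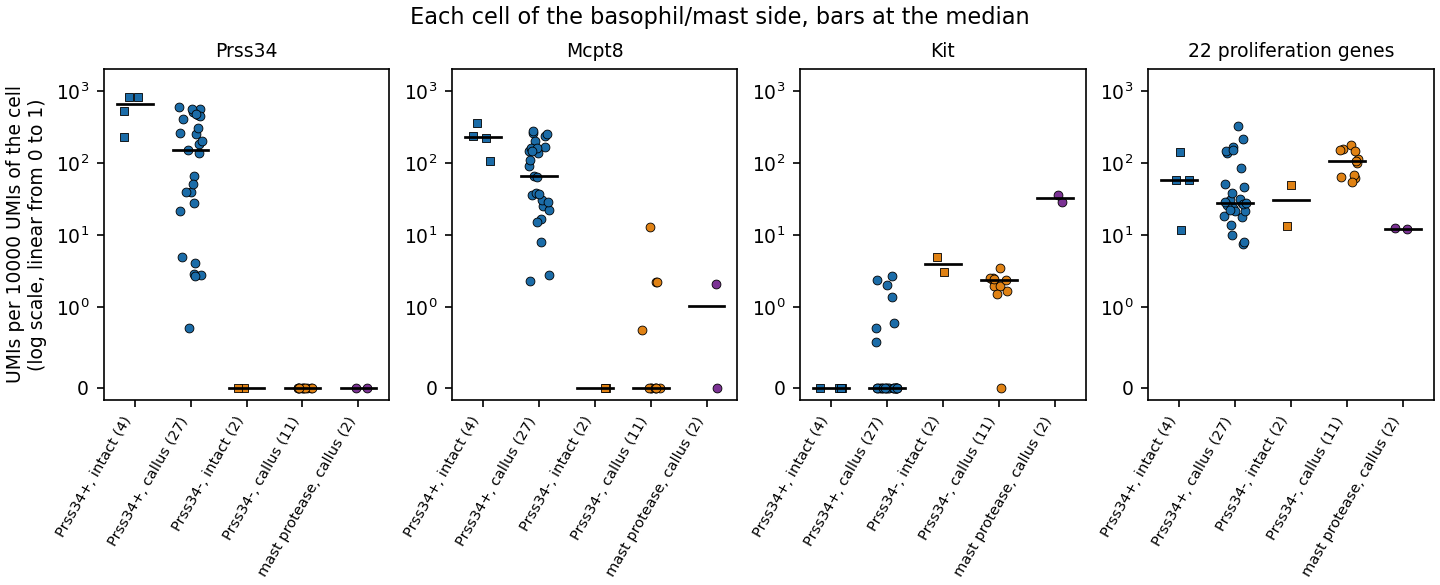
UMIs per 10000 UMIs of each cell on the basophil/mast side (log scale, linear from 0 to 1) for *Prss34*, *Mcpt8*, *Kit* and the sum of 22 proliferation genes. Points are cells (squares intact, circles callus), bars are medians and numbers of cells stand in parentheses. *Prss34* spreads over a wide range in callus Prss34+ cells, *Kit* is present in most Prss34- cells and the proliferation sum is high in all 11 callus Prss34- cells.

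Prss34+ cells of both libraries carried the genes of basophil effector functions. *Hdc*, which makes histamine, was at 3403 CPM in intact, where 1 cell held 67.7% of its UMIs, and at 1843 CPM in callus. The chemokine *Ccl3* was at 6257 and 2542 CPM, and *Ccl4* at 7684 CPM, with 71.9% in 1 intact cell, and 2502 CPM. The cytokine *Il4* was at 512 CPM in 4 of 4 intact cells and at 180 CPM in 18 of 27 callus cells. *Il6* was at 256 CPM in 2 intact cells and at 431 CPM in 20 of 27 callus cells. *Il13* was at 403 CPM in 2 intact cells and at 6.53 CPM in callus, where 1 cell carried it. The macrophage growth factor *Csf1* was at 1061 and 647 CPM and the leukotriene enzyme *Alox5* at 476 and 294 CPM. The receptor genes *Csf2rb*, the shared β chain for IL-3, IL-5 and GM-CSF (146 and 294 CPM), and *Il1rl1*, the IL-33 receptor (146 and 127 CPM), were also present in both.

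Callus Prss34- cells had another profile. *Kit* was at 207 CPM (interval 159 to 266) in 10 of 11 cells, against 58.8 CPM in 7 of 27 callus Prss34+ cells. *Cd34* was at 245 CPM in 11 of 11 cells against 81.7 CPM in 9 of 27. *Cpa3* was at 799 CPM (interval 700 to 908) in 11 of 11 cells against 3590 CPM. *Gata2* was at 235 CPM in 8 of 11 cells against 1457 CPM. Both progenitor surface genes were thus higher and both lineage genes lower in the Prss34- cells. *Mcpt8* was at 245 CPM in 4 of 11 cells, and 1 cell held 76.4% of it. *Fcer1a* was at 3.40 CPM, which is 1 UMI.

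Across all genes, 13.1% were higher and 11.9% lower in callus Prss34+ than in callus Prss34- cells. All 21 tested basophil genes were higher, with a median log2 difference of 2.77 against -0.07 for all 4302 genes tested. Of the cytokines and chemokines 11 of 13 were higher, of the inflammatory and NF-kB genes 8 of 14, and of the histamine and lipid mediator enzymes 6 of 8. The groups were split by a basophil gene and after seeing the values, so that the direction of these lists was partly fixed by the split. Of 24 lineage transcription factors 10 were higher, among them *Gata2*, *Cebpa*, *Cebpb*, *Xbp1* and *Lmo4*, and 4 were lower, *Myc*, *Meis1*, *Lmo2* and *Lyl1*. Of 14 progenitor genes *Gata2* and *Itga2b* were higher and *Muc13*, *Kit*, *Meis1*, *Cd34* and *Car2* lower. Of 21 proliferation genes 0 were higher and 6 lower, *Stmn1*, *Ccna2*, *Mcm5*, *Cenpf*, *Tubb5* and *Ccnb1*. The Prss34- cells were also deeper, with a median of 27924 against 11775 UMIs, and the part of depth in these differences was not tested.

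Compared with the progenitor group, the 214 callus cells in which *Mpo*, *Elane*, *Prtn3* and *Ctsg* gave 1% or more of the UMIs, the callus Prss34- cells differed again. Of all genes 12.1% were higher and 9.12% lower in the Prss34- cells. Of 15 progenitor genes 11 were higher, among them *Meis1* (71.4 against 5.07 CPM), a transcription factor of stem cells, and *Angpt1* (272 against 5.87 CPM), the growth factor angiopoietin 1. *Apoe* was at 816 against 25.9 CPM and *Sox4* at 371 against 47.5 CPM. *Cd34* was at 245 against 55.6 CPM. *Kit* was at 207 against 124 CPM, less than 2-fold apart. Of 14 basophil genes 9 were higher, of 20 immediate-early and dissociation genes 15, and of 25 secretory pathway genes 0, with 6 lower. *Mpo* was at 1700 against 6179 CPM, which the rule itself set.

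The 2 intact Prss34- cells had 9766 and 5975 UMIs. They carried 6 and 10 UMIs of *Cpa3*, 3 and 3 of *Kit*, 3 and 2 of *Cd34* and 2 and 1 of *Gata2*, with 0 of *Prss34* and *Mcpt8*. These counts were near the threshold of the rule. Their proliferation genes had 49.2 and 13.4 UMIs per 10000, both below the lowest of the 11 callus Prss34- cells (55.4), and *Mki67* had 0 UMIs.

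The 2 mast protease cells came from the callus. They had 4774 and 2493 UMIs, with 140 and 29 of the chymase *Cma1*, 36 and 31 of the tryptase *Tpsb2*, and 0 and 44 of *Mcpt4*. *Cpa3* had 57 and 28 UMIs, *Kit* 14 and 9, *Hdc* 20 and 28, *Gata2* 9 and 6, *Fcer1a* 7 and 3 and *Il1rl1* 9 and 4. Both had 1 UMI of *Mrgprb2*, a receptor of connective tissue mast cells, and 0 of *Prss34*. They thus differed from each other in *Mcpt4* and were alike in carrying *Kit* together with *Cma1*. *Cma1*, which helped to choose them, was at 0 UMIs in all Prss34+ and Prss34- cells. Mast cell proteases belong to families of similar genes whose reads can be shared, so that the level of a single *Mcpt* gene is uncertain.

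**Figure D3:**
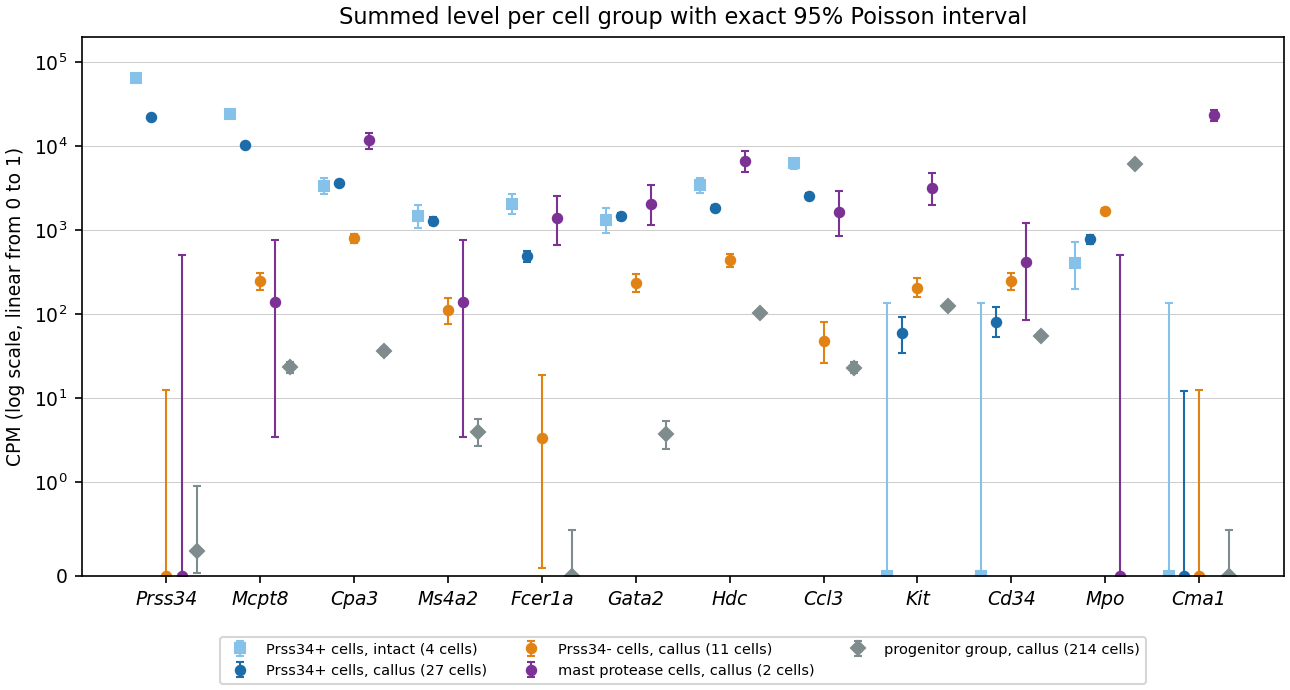
Summed level (CPM, log scale, linear from 0 to 1) of 12 genes in Prss34+ cells of both libraries, and in callus Prss34- cells, mast protease cells and the progenitor group. Points are group levels with exact 95% Poisson intervals, which cover counting error only. *Cma1* is high only in the 2 mast protease cells of the groups drawn, and *Mpo* is highest in the progenitor group.

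Every cell of the basophil/mast side carried UMIs of proliferation genes, the 6 intact and the 40 callus cells. The same held for every cell of the eosinophil side and of the progenitor group in both libraries. It also held for all intact and nearly all callus cells of the neutrophil group, and for most cells of the B-lineage group. Carrying such a UMI therefore does not set the basophil/mast side apart. The 22 proliferation genes summed to 6843 CPM in intact and 7772 CPM in callus Prss34+ cells, and to 11477 CPM in callus Prss34- cells. Per cell, as UMIs per 10000 UMIs, intact Prss34+ cells ran from 11.9 over a median of 57.8 to 142. Callus Prss34+ cells ran from 7.55 over 28.0 to 327 and had 3 cells below, 19 within and 5 above the intact range. Callus Prss34- cells ran from 55.4 over 105 to 181, and the progenitor group of the callus from 12.9 over 90.7 to 183. The Prss34- cells thus lay within the range of the progenitor group. The marker gene of dividing cells *Mki67* was at 366 CPM in callus Prss34+ cells, found in 10 of 27, and at 347 CPM in callus Prss34- cells, found in 9 of 11. The mast protease cells had 12 and 12.6 per 10000.

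Callus and intact cells of the basophil/mast side were then set against each other. The intact pool held 43070 UMIs, and a gene of low level entered mainly through the larger callus pool. Of 4547 genes, 13.6% were higher and 9.63% lower in callus, and the median log2 difference of all genes was 0.23. Of 21 basophil genes 0 were higher and 11 lower in callus, with a median of -1.07. The count of lower genes was 6 of 20 after thinning to 3500 UMIs a cell, which left out 2 of the 40 callus cells, where 7.81% of 1165 genes were lower, and 5 of 21 with the mean of single-cell CPM, where 9.32% of 4547 genes were lower. Both list counts were chosen after seeing the data, and the cause of the smaller counts was not tested. The 11 genes were *Prss34*, *Fcer1a*, *Cd200r3*, *Ccl3*, *Ccl4*, *Il4*, *Csf1*, *Osm*, *Cd9*, *Lilrb4a* and *Lilr4b*. The callus level of *Prss34* was 0.271 times the intact level, that of *Fcer1a* 0.203, of *Cd200r3* 0.391, of *Ccl3* 0.333 and of *Ccl4* 0.294. Of the 6 intact cells, 1 held 57.3% of the UMIs of *Ccl3* and *Ccl4* together. Of the 56 intact *Fcer1a* UMIs, 30 and 23 were in single cells. The ratios of these 3 genes therefore depend on few intact cells. *Mcpt8*, a gene of the rule, was at 0.346 times the intact level, *Ms4a2* at 0.658 and *Cpa3* at 0.931. The share of Prss34+ cells among the side was 4 of 6 and 27 of 40, and the difference rests on 6 intact cells.

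Proliferation genes were more often higher in the pooled sums of the callus, but not in the middle cell. Of 21 tested, 10 were higher and 1 lower in callus, with a median of 1.16, and 4 of 9 were higher after thinning (15.5% of all genes) and 6 of 21 with the mean of single-cell CPM (14.7% of all genes). Per cell, the sum ran from 11.9 over a median of 53.4 to 142 per 10000 in the 6 intact cells and from 7.55 over 42.7 to 327 in the 40 callus cells, so that the groups overlapped and the median was lower in callus. The 11 deep Prss34- cells gave 3376 of the 5764 proliferation UMIs of the callus side. *Mki67* had 214 UMIs in callus and 0 in intact, at least 5.06-fold higher with the intact library at a floor of 3 counts over the group. *Pclaf* had 143 and 0 UMIs (at least 3.38-fold). *Tubb5*, a tubulin, had 435 and 5 UMIs, which is 6.17-fold in CPM, and *Stmn1* 903 and 30, which is 2.13-fold. The summed level of the list was 5642 CPM (interval 4955 to 6398) in intact and 9488 CPM (interval 9245 to 9736) in callus. The same sum was 4279 and 10510 CPM in the neutrophil group and 6698 and 11463 CPM in the B-lineage group, higher in callus in both, and 9390 and 9547 CPM in the 7 and 214 cells of the progenitor group, where it was close. Outside this list, *H2afx*, a histone variant, had 176 UMIs in callus and 0 in intact (at least 4.16-fold), and *Ezh2*, a histone methyltransferase, 109 and 0 (at least 2.58-fold). Both were named for the size of their difference. That 0 genes lower in callus met the limits for naming is no result. With 6 intact cells, the limit on the share of 1 cell left almost no room for such genes.

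In the same comparison 13.6% of all genes were higher and 9.63% lower in callus. Among the other lists the cytokines and chemokines had 1 gene higher and 6 lower of 14, and the lineage transcription factors 3 higher and 5 lower of 24. The IgE receptor and proximal signalling genes had 0 higher and 3 lower of 12, *Fcer1a*, *Lcp2* and *Lat*, the latter both adaptors that link the receptor to calcium release. Of 24 secretory pathway genes *Calr*, *Hspa5* and *Spcs1* were higher and *Xbp1* was lower, and neither share was above that of all genes. *Calr*, a chaperone of the endoplasmic reticulum, had 767 UMIs in callus and 15 in intact (3.63-fold), and *Hspa5* 508 and 14 (2.57-fold). Of 16 immediate-early and dissociation genes 0 were higher and 5 lower. Their sum was 20919 CPM in intact, with 43.4% in 1 cell, and 12592 CPM in callus. It was 6727 and 3408 CPM in the neutrophil group and 11862 and 8141 CPM in the B-lineage group. Such genes respond to tissue digestion, and their part in the differences between the libraries was not tested.

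**Figure D4:**
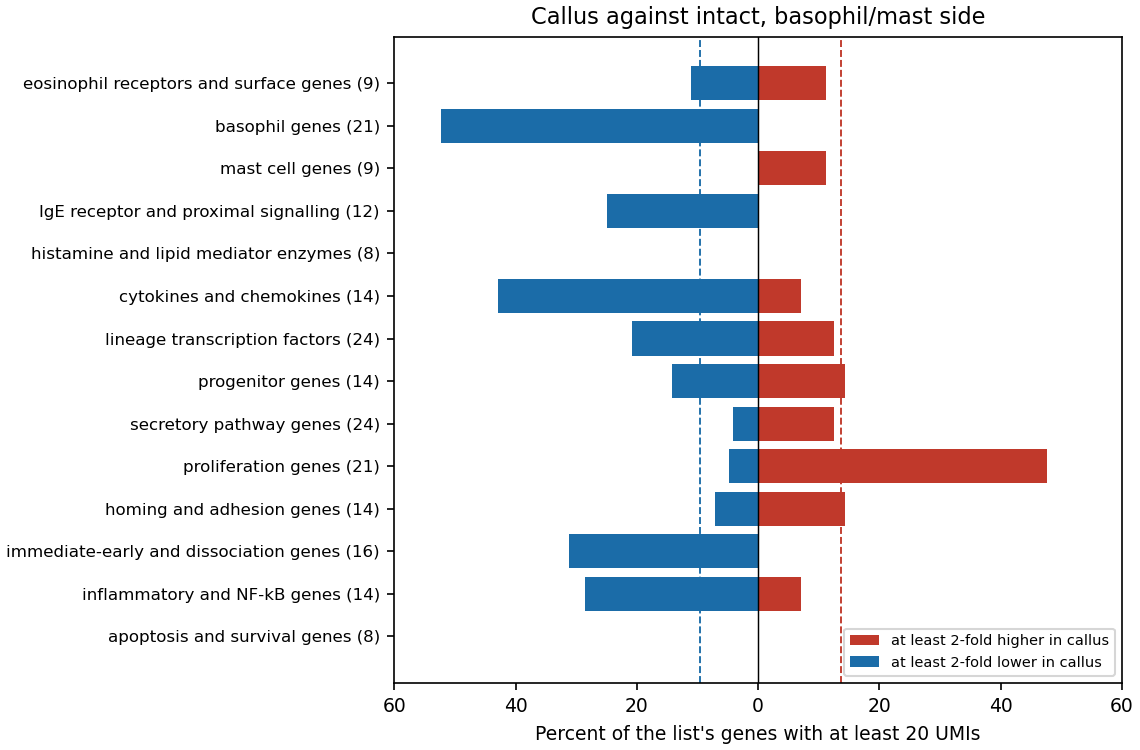
Percent of the genes of each list that were at least 2-fold higher (red, to the right) or lower (blue, to the left) in callus than in intact cells of the basophil/mast side, with the number of genes tested in parentheses. Dashed lines mark the shares of all genes, 13.6% higher and 9.63% lower. Basophil genes are only to the left (11 of 21, and 6 of 20 after thinning) and proliferation genes mostly to the right (10 of 21, and 4 of 9 after thinning).

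Within Prss34+ cells alone, 17.5% of 2521 genes were higher and 8.41% lower in callus, with a median log2 difference of 0.24. Of 21 basophil genes 0 were higher and 9 lower, with a median of -0.72. *Prss34* was at 64181 CPM (interval 61212 to 67256) in intact and 21885 CPM (interval 21364 to 22416) in callus, 0.341 times the intact level. *Fcer1a* was at 2049 CPM (interval 1548 to 2661) and 487 CPM (interval 412 to 572), 0.238 times, and *Mcpt8* at 24406 and 10405 CPM, 0.426 times. *Gata2* at 1317 and 1457 CPM and *Cpa3* at 3366 and 3590 CPM were close in both. Of 17 proliferation genes 6 were higher and 1 lower. The per-cell median of the sum of the whole list was lower in callus, 28.0 against 57.8 per 10000. One callus cell held 22.1% of the proliferation UMIs of its group. Of 24 secretory pathway genes 5 were higher, *Hspa5*, *Atf4*, *Calr*, *Canx* and *Creld2*, and 1 lower. *Sox4*, a transcription factor of immature cells, had 106 UMIs in 13 callus cells and 0 in intact (at least 3.15-fold).

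The eosinophil side held 6 cells, and most of them were not led by eosinophil genes. The intact cell had 27830 UMIs, of which 18 were from *Prg2* and 1 from *Prg3*. Its *Igkc*, the κ light chain, had 16215 UMIs and *Jchain*, the joining chain of secreted antibodies, 805, and immunoglobulin genes gave 73.5% of its UMIs. A pair of callus cells was alike, with 28918 and 33271 UMIs. They had 12 and 11 UMIs of *Prg2*, 2224 and 2391 of *Jchain* and 17413 and 18696 of *Igkc*, and immunoglobulin genes gave 79.0 and 73.8% of their UMIs. These 3 cells thus met the rule with few *Prg2* UMIs at great depth and carried the genes of antibody-secreting plasma cells.

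Low *Prg2* and *Prg3* counts were found in other B-lineage cells. Cells with at least 100 *Jchain* UMIs numbered 3 in intact and 16 in callus, of which 1 and 2 were members. *Prg2* was found in 2 and 5 of the 3 and 16 cells. These counts include the 1 and 2 members, which the rule had admitted by their *Prg2*. Among the non-members with at least 100 *Jchain* UMIs, the highest *Prg2* count was 1 in intact and 2 in callus. *Prg3* was found in 14 of 280 intact B-lineage cells (5%) and in 26 of 638 callus B-lineage cells (4.08%). The highest *Prg3* count of a B-lineage cell outside the members was 2 in intact and 4 in callus. A further callus member also carried B-lineage genes but had more *Prg3*, with 3541 UMIs, 15 UMIs of *Prg3*, 0 of *Prg2* and 16 of *Vpreb3*, a gene of the precursor B-cell receptor, besides 28 of *Ighm*, 3 of *Cd79a* and 4 of *Cd79b*.

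Only the remaining 2 callus cells of the side were led by eosinophil granule genes. The deeper had 23014 UMIs and 4144 genes, with 2334 UMIs of *Prg2*, 235 of *Prg3*, a homologue of major basic protein, and 200 of *Epx*, together 12% of its UMIs. It also had 11 UMIs of *Cebpe*, 4 of *Siglecf*, an eosinophil surface lectin, 2 of *Il5ra*, the receptor of the eosinophil growth factor IL-5, and 19 of *Hdc*. *Mcpt8* had 15, *Cpa3* 12 and *Ms4a2* 2 UMIs in the same cell, and *Ctsg* had 20. Its proliferation genes had 89 UMIs, 38.7 per 10000. The shallower cell had 1297 UMIs and 787 genes, with 57 UMIs of *Prg2*, 2 of *Prg3* and 0 of *Epx*, together 4.55%, and 2 UMIs of *Ear2* and 1 of *Ear6*, ribonucleases of eosinophil granules whose reads can be shared within their family. *Ccr3*, the eotaxin receptor of mature eosinophils, had 0 UMIs in all 5 callus cells, as had *Ear1* and *Alox15*.

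**Figure D5:**
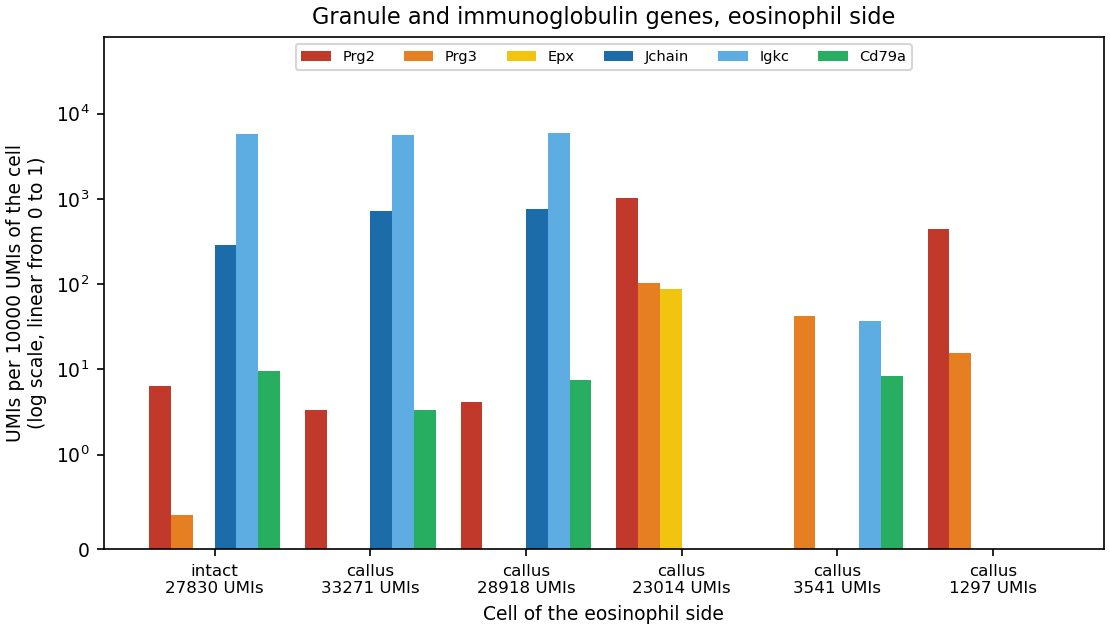
UMIs per 10000 UMIs of each cell (log scale, linear from 0 to 1) for 3 eosinophil granule genes and 3 B-lineage genes in the 6 cells of the eosinophil side, labelled by library and depth. In 3 cells *Igkc* and *Jchain* stand far above *Prg2*, and *Epx* is present in 1 cell.

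The lists show the same mixture. In the intact cell 4.76% of all genes were higher than in the other intact cells, and 14 of 25 secretory pathway genes were. In the 5 callus cells 4.4% of all genes were higher than in the other callus cells, and 3 of 4 eosinophil granule and ribonuclease genes were, the 3 genes of the rule. The same cells had 8 of 25 secretory pathway genes higher, among them *Xbp1*, *Ssr4*, *Calr* and *Herpud1*. Of 16 eosinophil receptor and surface genes 2 were higher, *Siglecf* and *Il5ra*. Their 4 and 2 UMIs were all in the callus cell of 23014 UMIs. The leading genes of the side, ranked in callus, were *Prg2*, *Prg3*, *Jchain*, *Igkc*, *Igha*, *Iglv1*, *Iglc2*, *Trp53inp1*, *Txndc5*, *Gm30211*, *Xbp1*, *Mzb1*, *Iglc1*, *Nfkbia* and *Ssr4*. In the intact cell *Igha* and *Nfkbia* were lower than in the other intact cells, with log2 differences of -4.65 and -2.27. *Iglc2* was less than 2-fold higher there, with a log2 difference of 0.60. Callus against intact, 50.6% of 352 genes were higher and 9.38% lower, which sets 5 unlike cells against 1 and cannot be read as an effect of the fracture. The side is therefore best called by its rule and not as eosinophils.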

How the data were processed

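The authors deposited, for each library, a filtered matrix of raw UMI counts per gene and cell, made with Cell Ranger (6.0.0 in the file header) on build mm10. No normalization had been applied. Genes were named from the deposited gene tables. Counts were read with scanpy 1.11.5 and summed with numpy 2.4.6 and pandas 2.3.3 under python 3.11.15, intervals came from scipy 1.17.1 and plots from matplotlib 3.10.9. A gene was compared with at least 20 UMIs over both groups, and log2 differences had 10 CPM added. A group with 0 UMIs entered a fold at a floor of 3 counts. Named genes were the 15 leading genes of each side, ranked in the callus library, and the members of 17 fixed lists. Up to 10 genes each way between libraries were also named (at least 50 UMIs, no cell holding over 20% of them). By these limits 1087 genes of the basophil/mast side and 399 of Prss34+ cells were eligible as higher in callus. The genes eligible as lower numbered 0 in both, so that naming went one way only. The limits themselves brought this about. Among 4 intact Prss34+ cells some cell must hold over 20% of the UMIs of a gene. Among 6 intact cells of the side, only a nearly even spread could meet the limit. Members and lists were chosen with earlier results of these data known. Doublets were not removed: Scrublet called 3 intact (0.249%) and 4 callus cells (0.121%), too few to have worked, and no member. The B-lineage group had at least 3 UMIs of *Cd79a* and *Cd79b*, and the neutrophil group at least 2% of UMIs from *S100a8*, *S100a9*, *Retnlg*, *Ngp* and *Camp*. The sums and calls were tested on simulated data. Alternatives varied the rule, the UMI minimum, the normalization and the depth. The tdTomato transcript was not analysed here.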

Additional observations from a re-analysis of the deposited data

Results flagged for a closer look

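A callus barcode that the mitochondrial limit left out carried an eosinophil granule signal. It had 2690 UMIs, 12.6% of them mitochondrial, and 109 UMIs of *Prg2*, *Prg3* and *Epx*, of which 97 were from *Prg2*, 10 from *Prg3* and 2 from *Epx*. It was outside the cells compared in the report, and no intact barcode of this kind was left out. One more callus barcode over this limit met the minimum of the rule, with 6827 UMIs, 11.2% mitochondrial, 9 UMIs of *Cpa3* and 2 of *Mcpt8*, but its share of *Mpo*, *Elane*, *Prtn3* and *Ctsg* was 5.74%.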

How the results depend on the processing

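No paired analysis was possible because each condition was 1 library. Of 78 alternatives to 18 main values, 56 stayed within counting error or within 1.5 times and 22 did not. These values are counts and shares, for which a change of direction was not defined. Of 158 alternatives for single genes, 37 moved. A change of direction was looked for only in genes called higher or lower, and 0 were found. The eosinophil side fell to 0 intact and 2 callus cells with at least 20 rule UMIs, to 0 and 3 without cells of 100 or more *Jchain* UMIs (chosen after seeing the data), and rose to 9 callus cells without the *Mpo*, *Elane*, *Prtn3* and *Ctsg* limit. Its genes higher in callus (178) were 99 with at least 50 UMIs, 335 with at least 5, 75 after thinning to 3500 UMIs a cell (which left out the callus cell of 1297 UMIs) and 115 without mitochondrial and ribosomal genes, and its lower genes (33) were 11, 177 and 5 under the first 3 of these settings. On the basophil/mast side, the 619 higher genes became 315 with at least 50 UMIs and 180 after thinning (2 of 40 callus cells left out), and the 438 lower genes 131 with at least 50, 1335 with at least 5 and 91 after thinning. The count of lower basophil genes (11 of 21) was 6 of 20 after thinning (7.81% of 1165 genes) and 5 of 21 with the mean of single-cell CPM (9.32% of all genes; both added after seeing the data), and that of higher proliferation genes (10 of 21) 4 of 9 (15.5%) and 6 of 21 (14.7%). The share of eosinophil-side intact cells with a proliferation UMI was 0% thinned and 100% unthinned. With at least 20 rule UMIs, or without the deepest cell, the eosinophil side had no intact cell to compare. Depth limits the intact groups, 6 cells with 43070 UMIs and 1 cell with 27830, where a count of 0 cannot show absence.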

Other observations

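One callus Prss34- cell, the deepest with 42121 UMIs, carried genes of antigen presentation, which belong to dendritic and other antigen-presenting cells. It had 168 UMIs of *Cd74*, the invariant chain, and 100 of *H2-Aa*, and held 433 of the 441 MHC class II UMIs of the 11 cells (98.2%). The same cell had 55 UMIs of *Mcpt8*. *Ptgs2*, the inducible prostaglandin synthase, was at 425 CPM in callus Prss34+ cells but in 6 cells only, and 1 cell held 69.2% of it.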
